A study of Mus musculus with 6 samples.

Results

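The hypoxia and glycolysis genes are a list of 36 genes, chosen by name, among the 32285 genes measured by single-cell RNA-Seq in CD45+ cells isolated from B16-F10 tumors, a mouse melanoma grown in C57BL/6 mice. All 36 were found by symbol, and Aldoa was listed under 2 identifiers, of which the one with 113423 UMIs was used and the other, with 32 UMIs, was not. UMIs are molecular tags that count individual RNA molecules. They were summed per sample within 6 lineages, which were clusters named from fixed marker genes: macrophages, monocytes, neutrophils, CD8 T cells, melanoma-like cells and fibroblast-like cells. Each name means that the cluster resembled that type.

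The study compared 3 αPD-1 samples with 3 αPD-1 + corin samples, and the 2 groups bear on what corin adds to checkpoint blockade. Corin is a small molecule that inhibits the LSD1 and HDAC enzymes of the CoREST complex, a repressor of transcription. All hosts were female mice 6 to 10 weeks old without a named genetic change, and every tumor came from the B16-F10 line. The αPD-1 antibody was given to both groups at 150 μg per mouse, 3 times a week from day 7. The αPD-1 + corin group also received 200 μg of corin every day from day 6, where the labels name 5% DMSO in PBS as the vehicle. There were 10 mice in an arm. Samples are not tied to mice in the labels, nor is pooling mentioned, so p-values measure the spread between these samples, which may be partly technical. Cells were frozen as suspensions, thawed, cleared of dead cells and enriched on CD45 beads.

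Cells use glucose by importing it, splitting it through the glycolytic enzymes and passing pyruvate to mitochondria or turning it into lactate. When oxygen is short, the EGLN hydroxylases no longer mark HIF-1α for destruction, and HIF-1 binds short ACGTG or GCGTG sequences near genes for glucose uptake, glycolysis, angiogenesis and the recycling of mitochondria. Tumors are often poorly perfused, and activated T cells, neutrophils and tumor cells can all rely on glycolysis, so this gene set is read in tumors both as a sign of low oxygen and as a sign of metabolic activity.

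The promoters of Mif, Pgk1, Ldha and Pdk1 are shown because the first 2 were higher with αPD-1 + corin in both CD8 T cells and monocytes, Ldha was higher in CD8 T cells, and Pdk1 had the greatest fall of the list in CD8 T cells. Each run covers 250 bases before and 50 bases after the start of a transcript in the RefSeq table of build GRCm38.p6, 5′ to 3′ on the strand of the gene, with ACGTG or its reverse complement CACGT in capitals. This build differs from the GRCm39 build named by the labels, and no coordinate was carried between them.
Mif (chr10:75860228-75860527, minus strand): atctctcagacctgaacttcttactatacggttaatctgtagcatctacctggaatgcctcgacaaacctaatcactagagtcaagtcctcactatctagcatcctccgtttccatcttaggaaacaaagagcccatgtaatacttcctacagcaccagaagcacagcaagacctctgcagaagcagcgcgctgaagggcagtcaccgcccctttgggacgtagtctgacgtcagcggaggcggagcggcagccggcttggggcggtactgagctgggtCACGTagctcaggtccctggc
Pgk1 (chrX:106186850-106187149, plus strand): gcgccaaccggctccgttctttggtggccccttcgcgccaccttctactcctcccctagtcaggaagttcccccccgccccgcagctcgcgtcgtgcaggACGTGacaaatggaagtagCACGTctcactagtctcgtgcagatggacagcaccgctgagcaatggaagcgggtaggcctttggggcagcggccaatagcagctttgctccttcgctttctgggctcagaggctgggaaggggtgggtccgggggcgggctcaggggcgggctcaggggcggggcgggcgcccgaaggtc
Ldha (chr7:46845554-46845853, plus strand): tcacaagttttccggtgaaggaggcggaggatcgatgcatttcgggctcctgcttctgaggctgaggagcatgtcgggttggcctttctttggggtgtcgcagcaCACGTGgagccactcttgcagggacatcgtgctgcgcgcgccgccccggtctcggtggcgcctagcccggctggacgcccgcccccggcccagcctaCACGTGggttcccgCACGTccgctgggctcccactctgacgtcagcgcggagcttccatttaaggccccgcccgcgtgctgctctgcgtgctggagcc
Pdk1 (chr2:71872974-71873273, plus strand): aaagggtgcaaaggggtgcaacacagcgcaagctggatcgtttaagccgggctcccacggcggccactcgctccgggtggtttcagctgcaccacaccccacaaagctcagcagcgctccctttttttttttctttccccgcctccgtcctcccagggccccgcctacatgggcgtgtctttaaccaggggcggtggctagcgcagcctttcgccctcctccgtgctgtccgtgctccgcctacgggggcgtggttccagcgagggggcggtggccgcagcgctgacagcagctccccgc
Mif had 1 capital stretch, Pgk1 had 2, Ldha had 3 and Pdk1 had none. GCGTG was not capitalized. On either strand it occurred 2 times in the windows shown for Ldha and for Pdk1, and not in those of Mif and Pgk1. Ldha and Pdk1 each had another window, not shown, without ACGTG. The overlapping letters CACGTG hold the motif on both strands, as at both longer stretches of Ldha, and are also an E-box, so Ldha held 5 matches when strands were counted separately. Of the 36 genes, 33 were matched in the table, and Ndrg1, Ero1l and Bhlhe40 were not. Their 47 windows held ACGTG on either strand in 27 (57.4%), against 19.6% of 32851 windows of the same length. By gene, 24 of 33 (72.7%) had at least 1 such window, against 21.8% of 27025 genes. With GCGTG counted as well, 80.9% of the member windows and 43.8% of all windows held a match. The member windows were also richer in G and C, with a median of 64.7% against 52.7%, and the part of base composition in these shares was not tested. A match is a stretch of letters and not a measured binding site, and a window without one says nothing about HIF.

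The samples held 52281422 to 84276739 UMIs before filtering, which kept 28865 of 52899 barcodes. The 6 lineages held 8865 macrophages, 1419 monocytes, 2391 neutrophils, 2537 CD8 T cells, 1887 melanoma-like cells and 986 fibroblast-like cells, and the sums per sample ran from 89381 to 15557525 UMIs. Among these 6 lineages, every defining marker was at its highest level in its own lineage (9 of 9 for macrophages, monocytes, neutrophils and melanoma-like cells, 5 of 5 for CD8 T cells and 8 of 8 for fibroblast-like cells). As the clusters had been named from these same markers, this is no test of the names. Other clusters, such as those of NK and dendritic cells, were not compared. Ptprc, which encodes CD45, averaged 448 to 1314 CPM (UMIs scaled to a common total per sum) in the immune lineages but only 16.5 CPM in melanoma-like and 36.5 CPM in fibroblast-like cells, so those 2 lineages are not CD45+ cells by their RNA. Neutrophils were few in the αPD-1 samples (20 to 36 cells) and CD8 T cells ranged from 82 to 952 cells with corin. Pairs of libraries shared at most 0.457% of their barcodes. Levels below are CPM scaled within a lineage by TMM, and since 5′ UMI counts are not corrected for transcript length, levels are compared between cells for one gene and not between genes. In such sums, fewer cells of a kind and less RNA per cell cannot be told apart. Gapdh, Eno1, Pgk1, Ldha, Aldoa, Tpi1, Pkm, Pgam1 and Mif have near-identical copies or pseudogenes, so their counts are uncertain to the extent that reads were split among copies.

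The lineages differed widely in these genes. Of the 36 genes, 18 had their highest mean level in melanoma-like cells, 10 in neutrophils, 6 in fibroblast-like cells and 2 in macrophages (Pfkfb3 and Plin2), and none in monocytes or CD8 T cells. Among the 17 genes for transport and glycolytic enzymes, 12 were highest in melanoma-like cells, while the glucose importer Slc2a1, Pfkp, Pfkfb4 and the lactate exporter Slc16a3 were highest in neutrophils. Of the 6 genes for secreted, collagen and protein folding functions, 4 were highest in fibroblast-like cells, among them the collagen prolyl hydroxylase subunits P4ha1 and P4ha2. These orders describe clusters of the same cells, and no test was run on them.

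Pgk1, the enzyme of the first ATP-yielding step of glycolysis, averaged 2276 ± 377 CPM (SD, n = 6) in melanoma-like cells, with 1786 in the lowest sample, and 658 ± 109 CPM in neutrophils, with 803 in the highest. These 2 lineages therefore did not overlap, whereas neutrophils, macrophages, CD8 T cells, monocytes and fibroblast-like cells, down to 407 ± 244 CPM, formed a chain in which each neighbor overlapped the next. Ldha, which turns pyruvate into lactate, ran from 1831 ± 261 CPM in melanoma-like cells, again clear of the next lineage, to 1119 ± 244 CPM in neutrophils and 624 ± 328 CPM in fibroblast-like cells. Hk2, the inducible hexokinase, averaged 180 ± 32 CPM in melanoma-like cells and 17.9 ± 3.3 CPM in CD8 T cells, where the highest sample (22.3 CPM) lay below the lowest monocyte sample (38.3 CPM).

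Slc2a1 averaged 358 ± 75 CPM in neutrophils, 263 ± 65 CPM in macrophages, 231 ± 100 CPM in fibroblast-like cells, 179 ± 35 CPM in monocytes, 117 ± 18 CPM in melanoma-like cells and 105 ± 7.2 CPM in CD8 T cells. Each lineage overlapped its neighbor, and the melanoma-like cells, which led for most of the enzymes, were next to last for this importer. Hilpda, a lipid droplet protein that inhibits triglyceride breakdown, stood apart in neutrophils at 560 ± 150 CPM, with a lowest sample of 387 CPM against a highest macrophage sample of 318 CPM. Macrophages had 226 ± 57 CPM of it, and the other 4 lineages had means between 57.7 and 98.2 CPM.

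Vegfa, the angiogenic growth factor, averaged 290 ± 111 CPM in fibroblast-like cells, 189 ± 36 CPM in melanoma-like cells, 185 ± 50 CPM in neutrophils and 135 ± 28 CPM in macrophages, all overlapping in turn. Monocytes at 46.3 ± 23.9 CPM and CD8 T cells at 8.95 ± 2.22 CPM lay below these without overlap. Bnip3, a mitochondrial protein of mitophagy, went from 367 ± 67 CPM in melanoma-like cells through 202 ± 92 CPM in neutrophils, 159 ± 128 CPM in fibroblast-like cells, 146 ± 41 CPM in macrophages and 62.1 ± 37.0 CPM in monocytes to 26.1 ± 7.1 CPM in CD8 T cells. Hif1a itself, the regulated subunit of HIF-1, varied least of these 8 genes, from 186 ± 46 CPM in macrophages to 261 ± 109 CPM in neutrophils, with every neighbor overlapping.

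**Figure D1:**
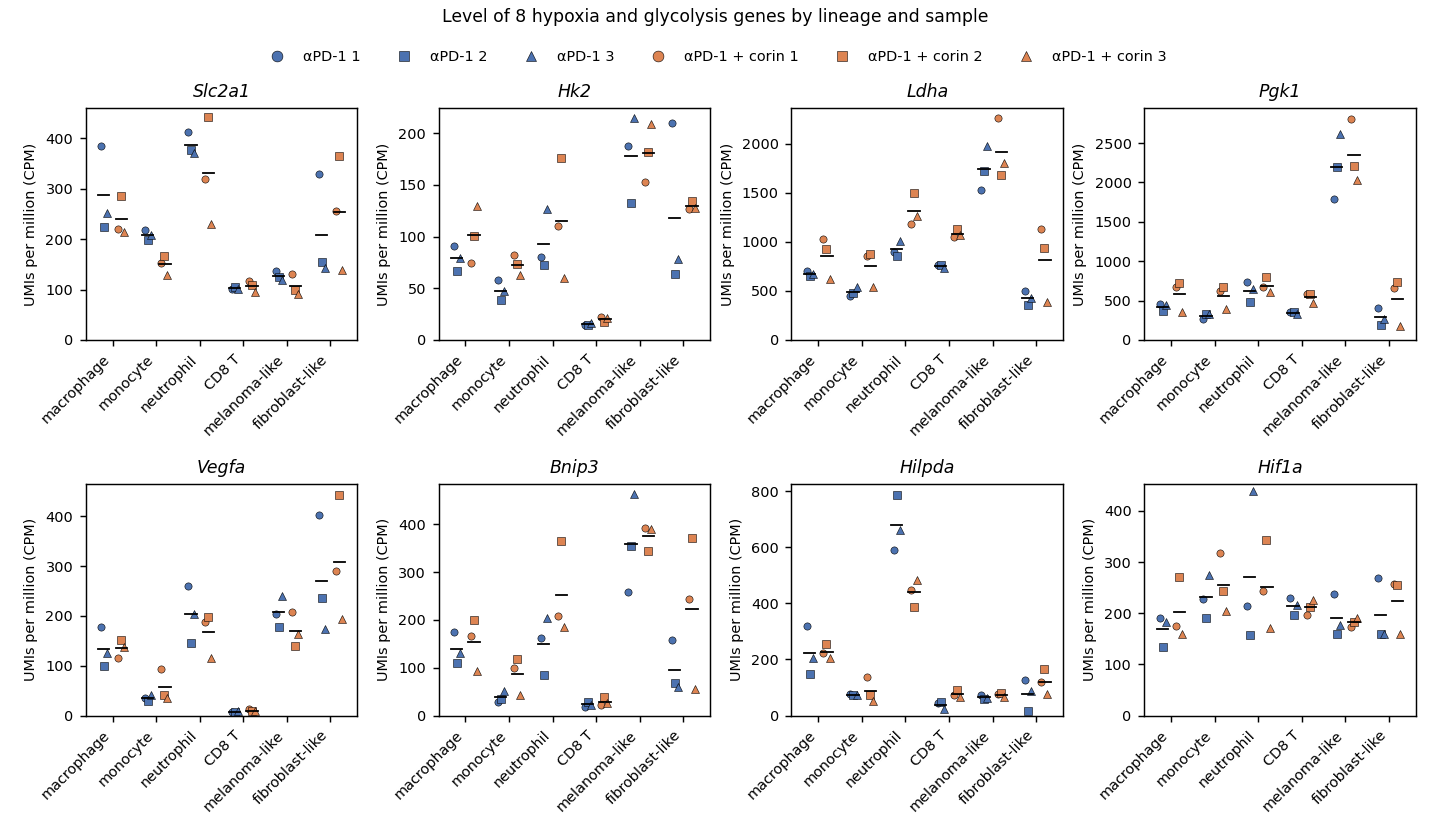
Levels of 8 of the genes (CPM, linear axes that start at 0) in 6 lineages, with a point per sample, αPD-1 in blue and αPD-1 + corin in orange, and a line at the mean of 3 samples. Pgk1, Ldha and Hk2 are highest in melanoma-like cells, Slc2a1 and Hilpda in neutrophils and Vegfa in fibroblast-like cells, and Hif1a differs little between lineages.

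The UMIs of 12 glycolytic enzyme genes (Hk2, Gpi1, Pfkp, Pfkl, Aldoa, Tpi1, Gapdh, Pgk1, Pgam1, Eno1, Pkm and Ldha) were also added up per 10000 UMIs. Melanoma-like cells had 175 ± 21 (SD, n = 6), neutrophils 73.6 ± 6.2, macrophages 68.5 ± 9.4, monocytes 53.5 ± 13.4, CD8 T cells 52.1 ± 9.6 and fibroblast-like cells 46.9 ± 21.2. Melanoma-like cells were far above the rest in every sample, and the other lineages overlapped. The upper limit of 4000 genes per cell removed large cells, and without it the melanoma-like cells had 208 ± 9.7. It left 84 to 624 melanoma-like cells per sample, against 464 to 1809 without it. The melanoma-like levels given here thus describe cells with at most 4000 genes.

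Within macrophages, these genes were at their highest level in 1 state. Macrophage clusters were named from fixed marker genes, which gave 735 cells of an Mmp12 Mmp13 state, 1882 of a Ppbp Ccl24 state, 1112 of a Lyve1 Folr2 state and 5136 cells in the remaining clusters. The name did not always go to the list with the most markers. A Ppbp Ccl24 cluster of 879 cells counted 4 markers of the Mmp12 Mmp13 state and 3 of its own. Another, of 1003 cells, counted 5 of the Lyve1 Folr2 state and 4 of its own. A name does not mean that both of its genes led the cluster. Mmp13 was not among the 10 leading genes of the Mmp12 Mmp13 state, Folr2 was not among those of the Lyve1 Folr2 clusters, and Mmp12 was among those of 1 of the remaining clusters. The Mmp12 Mmp13 state held 8.29% of macrophages and a median of 17.9% of their UMIs of the 36 genes, from 4.97% for Pfkfb4 to 42.3% for Ndrg1, against 7.79% of their UMIs of all genes. The 36 genes had been left out of the genes used for clustering, yet Ndrg1, Ero1l, Vegfa and Egln3 were among the 10 leading genes of the Mmp12 Mmp13 state, together with Inhba, Ptgs2, Sdc1, Mmp12, Cxcl3 and Rhov. Of the 36 genes, 35 had their highest mean in this state and all 35 were above the level in the remaining clusters in 6 of 6 samples, although for Pdk1 1 sample had 35.2 CPM in both. The exception was Pfkfb4, a fructose-2,6-bisphosphate enzyme, which was 0.64 times its level in the remaining clusters and highest in the Ppbp Ccl24 state. The median fold over the 36 genes was 2.95, against 0.90 over 6306 genes with at least 20 CPM in either, and 30 genes were over 2-fold, where 6.55% of all genes were. The median mitochondrial share per sample ran from 1.15% to 1.80% in this state and from 2.27% to 3.64% in the remaining clusters. Among the remaining clusters, those of 1078 and 774 cells each counted 3 melanoma markers. The part of RNA quality and of melanoma RNA in these folds was not tested. As clusters of the same cells were compared, this is a description without a test.

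The genes furthest above the remaining macrophages lay mostly outside glycolysis. They made up the 10 genes over 5-fold, a fold that 0.840% of all genes exceeded, together with the glucose importer. Ndrg1, a stress-induced gene of differentiation, averaged 855 ± 248 CPM (SD, n = 6) in the Mmp12 Mmp13 state and 103 ± 29 CPM in the remaining clusters, 8.34-fold, with samples between 5.26-fold and 13-fold. Egln3, an oxygen-sensing hydroxylase, averaged 344 ± 83 CPM against 41.3 ± 12.3 CPM (8.32-fold). Ero1l, an oxidase of disulfide formation, averaged 940 ± 183 CPM against 124 ± 31 CPM (7.61-fold). Lipid droplet, angiogenic and mitophagy genes followed, at 7.20-fold for Hilpda, 7.00-fold for the vasodilator peptide Adm, 6.89-fold for Vegfa and 5.77-fold for Bnip3. Slc2a1 averaged 1060 ± 260 CPM against 200 ± 51 CPM (5.29-fold), Ankrd37 was 5.24-fold higher, and Bhlhe40, a transcriptional repressor, was 5.06-fold higher. The 12 enzymes of the glycolytic sum below had smaller folds, between 1.73-fold for Pfkp and 3.27-fold for Pgk1. Hif1a was 2.07-fold higher, at 322 ± 63 CPM against 155 ± 22 CPM.

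**Figure D2:**
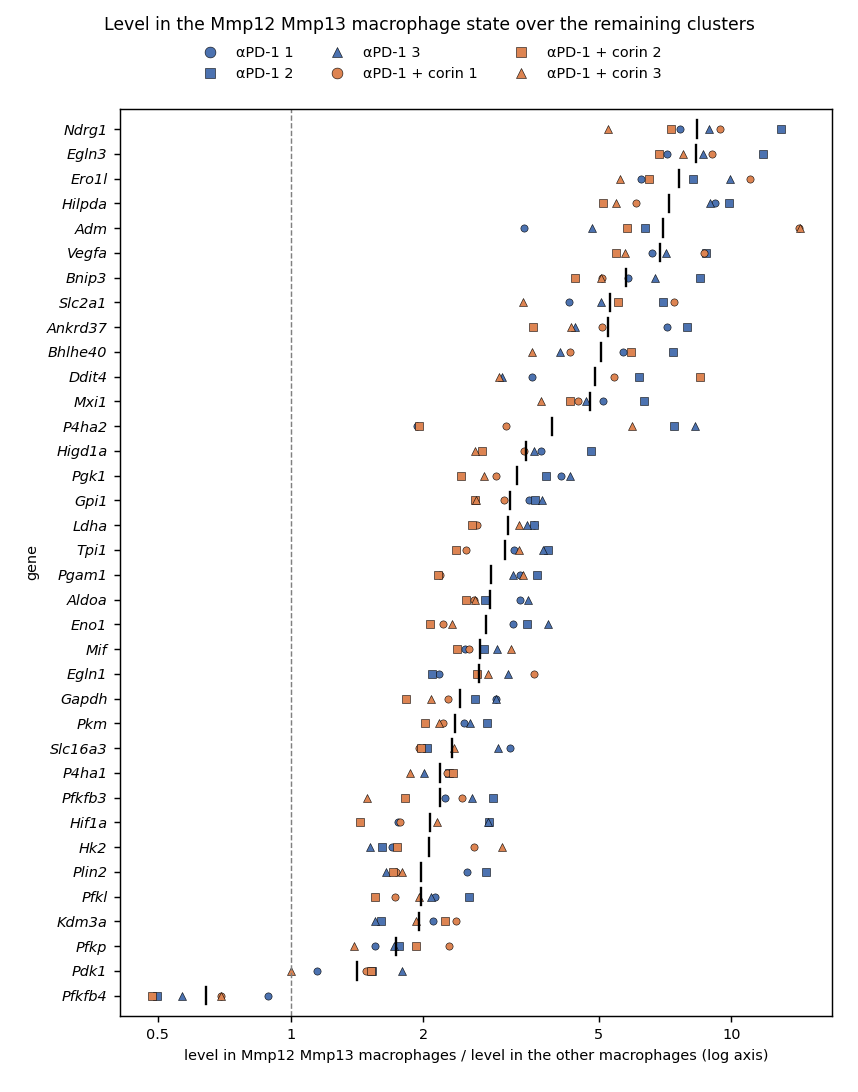
Level of each of the 36 genes in the Mmp12 Mmp13 macrophage state divided by its level in the remaining macrophage clusters (log axis), a point per sample and a bar at the ratio of the means over 6 samples. Points of 35 genes lie at or to the right of 1, and those of Pfkfb4 lie to its left.

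The glycolytic sum of melanoma-like cells ran from 141 to 201 under the 4000-gene limit and from 197 to 222 without it. That of the Mmp12 Mmp13 state, taken under the limit, overlapped only the first of these ranges. The sum was 154 ± 17 per 10000 UMIs (SD, n = 6) in the Mmp12 Mmp13 state, 58.8 ± 7.6 in the remaining clusters, 73.3 ± 19.7 in the Ppbp Ccl24 state and 44.9 ± 15.0 in the Lyve1 Folr2 state. The lowest Mmp12 Mmp13 sample, at 121, was above the highest of any other macrophage state, at 88.7. The share of macrophages in this state depended on the clustering, as described with the alternatives below. At resolution 0.8 it was similar in both groups, 11.8%, 6.06% and 9.24% with αPD-1 alone and 7.88%, 7.99% and 8.63% with αPD-1 + corin. The samples with corin lay inside the range of the others (two-sided exact permutation p = 0.7, where 3 against 3 cannot go below 0.1). Shares of the remaining clusters (84.1 ± 2.7% and 57.7 ± 24.5%, exact p = 0.3) and of the Ppbp Ccl24 state (5.05 ± 1.65% and 21.6 ± 16.1%, exact p = 0.4) also overlapped. The Lyve1 Folr2 state was 1.83 ± 0.62% with αPD-1 and 12.6 ± 8.9% with αPD-1 + corin, without overlap (exact p = 0.1, 0.4 after adjustment over 4 states).

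**Figure D3:**
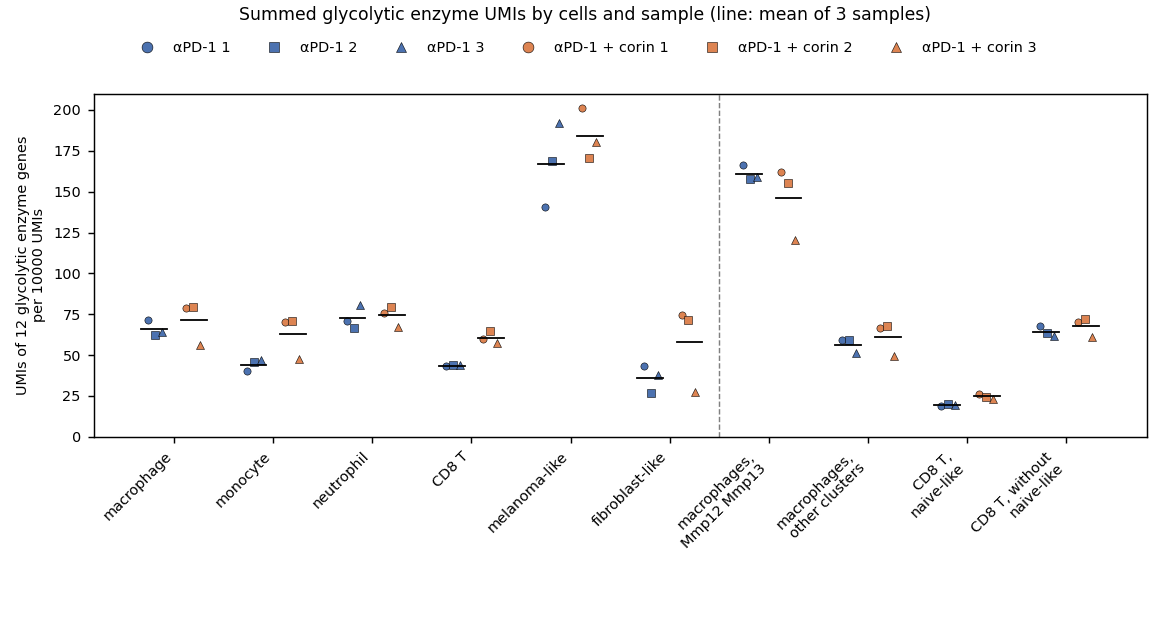
UMIs of 12 glycolytic enzyme genes per 10000 UMIs by sample, in the 6 lineages to the left of the dashed line and in parts of the macrophages and CD8 T cells to its right, with a line at the mean of 3 samples. Melanoma-like cells and Mmp12 Mmp13 macrophages lie at 121 or above in every sample, and naive-like CD8 T cells lie at 26.3 or below.

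Treatment was compared next, by edgeR's quasi-likelihood test on the sums with p-values adjusted over all genes tested in a lineage. CD8 T cells had most of the called genes. Of the 36 genes, 34 were tested there, and 13 were higher and 3 lower with αPD-1 + corin at an adjusted p under 0.05, where 3.35% of 8867 genes were called higher and 6.63% lower. In 18 of the 34 genes every αPD-1 + corin sample was above every αPD-1 sample, as in 13% of all genes tested, and in 3 every one was below, as in 14.8%. The median log2 fold change was 0.45 over the genes tested and 0.01 over all genes. DESeq2 called 10 higher and 2 lower, where it called 1.35% and 3.09% of all genes. The count of higher genes was 4 when cells above the upper gene limit were kept (1.55% of all genes) and 5 if replicate 1 of the αPD-1 group was left out (0.834%). It was 8 if replicate 3 of that group (1.54%) or replicate 2 of the corin group (1.98%) was left out. Adm and P4ha2 were too low to be tested.

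The genes that rose included 9 of the 17 transport and glycolytic genes: Gpi1, Pfkp, Aldoa, Tpi1, Gapdh, Pgk1, Pgam1, Pkm and Ldha. Pgk1 had 349, 357 and 332 CPM with αPD-1 alone and 581, 581 and 469 CPM with αPD-1 + corin. All samples with corin were higher, and the log2 fold change ± SE was 0.63 ± 0.13 (edgeR adjusted p = 0.00455). Tpi1, triose phosphate isomerase, had 332, 372 and 308 CPM and 474, 564 and 431 CPM, again without overlap (log2 fold change 0.53 ± 0.14, edgeR adjusted p = 0.0205). The other 7 rose by 0.39 to 0.52 on the log2 scale, with Pkm the least and Ldha the most. Eno1 (0.46, edgeR adjusted p = 0.0513) and Hk2 (0.44, edgeR adjusted p = 0.271) did not pass, although no sample with corin overlapped the αPD-1 samples.

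The greatest rise was in Bhlhe40, a transcriptional repressor of activated and tissue-resident T cells. It had 168, 192 and 185 CPM with αPD-1 alone and 331, 411 and 333 CPM with αPD-1 + corin. The groups were far apart, at 0.99 ± 0.13 (log2 fold change ± SE, edgeR adjusted p = 0.000196). The lipid droplet genes Hilpda and Plin2 rose as well. Hilpda had 42.9, 49.7 and 23.9 CPM against 71.5, 92.2 and 66.3 CPM with corin (0.89 ± 0.22, edgeR adjusted p = 0.0174). Plin2, the coat protein of lipid droplets, had 22.8, 26.6 and 20.1 CPM against 44.7, 37.7 and 42.7 CPM (0.80 ± 0.19, edgeR adjusted p = 0.0153). Neither gene overlapped between the groups, and both had low levels. Mif, a secreted cytokine that is also a HIF target, had 639, 661 and 701 CPM against 1001, 1077 and 1075 CPM. Its αPD-1 + corin samples were all higher (0.66 ± 0.11, edgeR adjusted p = 0.00131).

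The 3 genes that fell were Pdk1, Ddit4 and P4ha1. Pdk1, the kinase that keeps pyruvate from mitochondrial oxidation, had 48.3, 44.0 and 49.7 CPM with αPD-1 alone and 31.3, 21.0 and 20.0 CPM with corin. The groups did not overlap, and Pdk1 fell furthest of the 36 genes (−1.15 ± 0.20, edgeR adjusted p = 0.00135). Ddit4, a stress-induced inhibitor of mTORC1, had 140, 113 and 118 CPM against 44.7, 78.6 and 64.1 CPM (−0.89 ± 0.16, edgeR adjusted p = 0.00211). P4ha1 had 103, 82.8 and 86.0 CPM against 75.9, 61.8 and 54.6 CPM (−0.61 ± 0.16, edgeR adjusted p = 0.0225). Both fell without overlap. Hif1a was flat, at 214 ± 17 CPM and 212 ± 15 CPM (SD, n = 3 each; log2 fold change 0.02 ± 0.12), and none of the 5 oxygen-sensing genes was called.

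**Figure D4:**
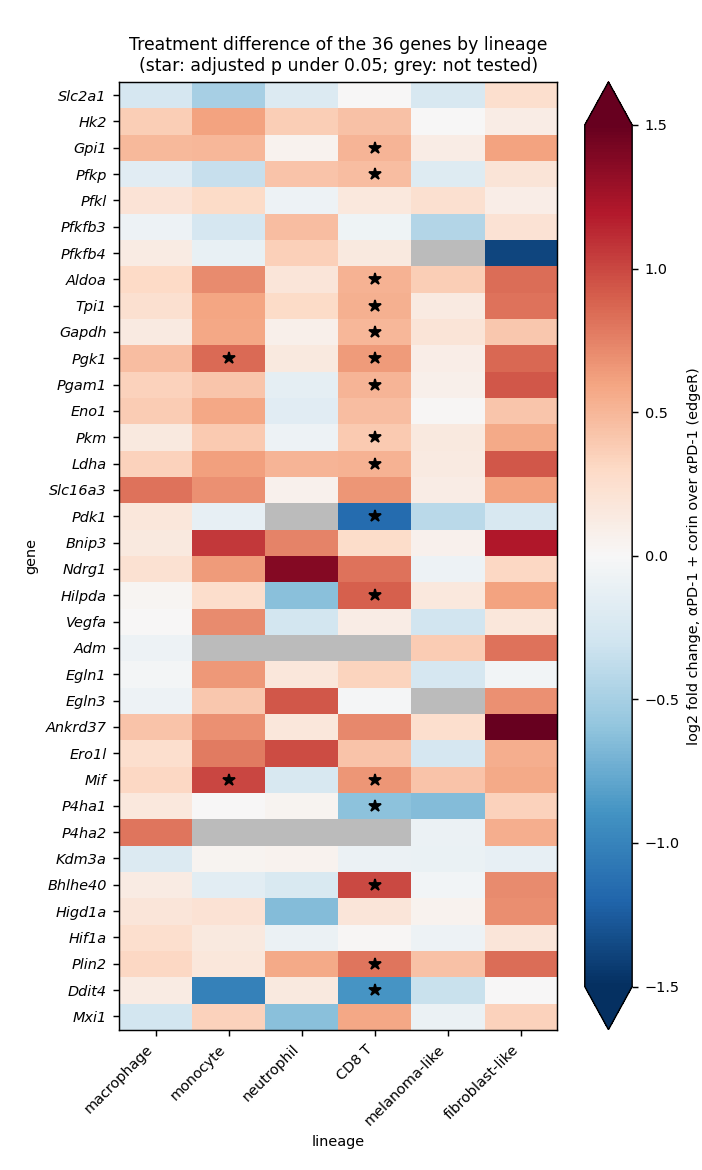
Log2 fold change of the 36 genes (αPD-1 + corin over αPD-1, color scale) in 6 lineages, with a star where the edgeR adjusted p is under 0.05 and gray where a gene was too low to be tested. Stars are confined to CD8 T cells (16) and monocytes (2).

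The makeup of the CD8 T cells differed between the groups. Naive-like clusters made up 74.7%, 66.4% and 65.6% of CD8 T cells with αPD-1 alone and 46.3%, 34.7% and 23.8% with αPD-1 + corin. The larger of them, led by Dapl1, Igfbp4, Rflnb and Ly6c1, made up 61.0%, 51.3% and 51.5% against 7.32%, 4.12% and 1.58%. The other met the naive-like markers but was led by Klra6, Klra1, Klra7 and Cd7, which are not naive T cell genes, so its name is uncertain. Glycolytic enzymes took 16.6 per 10000 UMIs in the Dapl1 cluster, 26.4 in the Klra cluster and 23.2 in a small cluster of interferon genes, against 68.0 in a cluster led by granzymes (Gzmf, Gzmd, Gzme, Gzmc) and 59.3 in one led by histone genes.

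Without the naive-like clusters, 0 of 32 genes passed the edgeR threshold, where 0.224% of all genes did, and at an unadjusted p under 0.05 Bhlhe40, Plin2 and Mif were higher and Ddit4 was lower, where 5.16% of all genes were past it. The same count of 0 of 32 came from leaving out the Dapl1 cluster alone (0.236% of all genes called, with 6 higher and 1 lower before adjustment against 6.48% of all genes), an alternative chosen after seeing the data. Leaving out the naive-like clusters left 116, 184 and 112 cells with αPD-1 alone and 44, 111 and 725 cells with αPD-1 + corin. The part of this loss of cells in the lower counts was not tested. Glycolytic enzymes took 43.6 ± 0.4 per 10000 UMIs with αPD-1 alone and 60.5 ± 3.9 with corin in all CD8 T cells (SD, n = 3 each). They took 58.4 ± 2.5 and 61.4 ± 4.1 without the Dapl1 cluster, and 64.3 ± 3.0 and 68.0 ± 5.9 without the naive-like clusters, with overlap between the groups in both cases. Pgk1 outside the naive-like clusters had 570, 557 and 480 CPM against 738, 670 and 521 CPM, which overlapped. Mif had 955, 892 and 922 CPM against 1149, 1196 and 1194 CPM, still without overlap, though the log2 fold change of 0.36 ± 0.12 did not pass (edgeR adjusted p = 0.747). Bhlhe40 had 261, 300 and 293 CPM against 381, 462 and 356 CPM, also without overlap (0.49 ± 0.15, edgeR adjusted p = 0.541). Plin2 had 28.3, 31.0 and 18.5 CPM against 41.7, 43.2 and 46.8 CPM, without overlap and with a log2 fold change of 0.74 ± 0.23 (edgeR adjusted p = 0.596), close to the 0.80 of all CD8 T cells.

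In the naive-like clusters alone, also examined after seeing the data, 23 of the genes could be tested and 5 were called, where 8.20% of all genes were. Bhlhe40 was higher, with 78.2, 63.4 and 44.8 CPM with αPD-1 alone and 183, 197 and 237 CPM with corin (1.77 ± 0.21, edgeR adjusted p = 5.47e-08). Pgam1, phosphoglycerate mutase, was also higher (0.88 ± 0.23, edgeR adjusted p = 0.00792). Pdk1 (−1.10), Ddit4 (−0.86) and P4ha1 (−0.79) were lower. Since these cells were mainly of the Dapl1 cluster in the αPD-1 samples and mainly of the Klra cluster with corin, a shift between the clusters and a change within them cannot be told apart here.

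**Figure D5:**
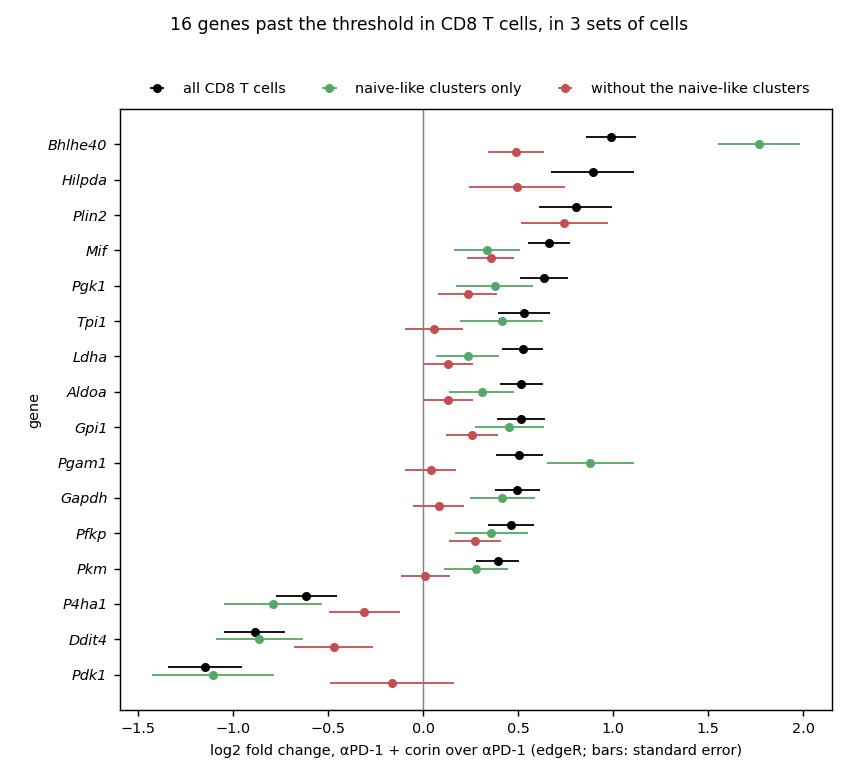
Log2 fold change (αPD-1 + corin over αPD-1, with its standard error) of the 16 genes called in CD8 T cells, for all CD8 T cells (black), naive-like clusters alone (green) and all but the naive-like clusters (red). Without the naive-like clusters every value lies nearer to 0 than in all CD8 T cells, and none is called.

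Other measures moved in the CD8 T cells too. Their median mitochondrial share was 2.29%, 2.19% and 2.61% with αPD-1 alone and 1.96%, 2.04% and 1.96% with corin, lower in every sample with corin. Of 12 genes of dissociation stress, 4 were lower with corin (Jun, Dnajb1, Hspa1a and Hspa1b), and their summed level was 5499 to 8518 CPM with αPD-1 alone and 3714 to 5308 CPM with corin. Of 28 oxidative phosphorylation genes, 6 were higher and none lower (Ndufa1, Ndufa2, Ndufb8, Uqcrq, Cox5a and Atp5d). Of 12 genes chosen here as an ATF4 stress list, Psat1 and Vegfb were higher, and of 8 glucocorticoid response genes, Tsc22d3 was lower. Whether each gene of the ATF4 list responds to ATF4 was not tested. The 7 B cell markers summed to 133 to 188 CPM against 10.6 to 33.5 CPM, and the 9 melanoma markers to 51.5 to 90.8 CPM against 8.62 to 80.2 CPM. The tumor cell markers were thus not higher with corin in these sums. The 9 macrophage markers summed to 120 to 163 CPM against 198 to 392 CPM, higher in every sample with corin. So did the 9 neutrophil markers rise, from 41.3 to 54.1 CPM up to 73.3 to 375 CPM. The part of macrophage and neutrophil RNA, the mitochondrial share and the other lists in the result was not tested. Of 50 other pathway genes that are not on the list, 30 were tested in CD8 T cells and 1 was called, the transferrin receptor Tfrc, with 69.1, 58.4 and 50.7 CPM against 75.9, 124 and 79.4 CPM (0.65 ± 0.19, edgeR adjusted p = 0.0402).

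In monocytes, 2 of 34 genes tested were higher with αPD-1 + corin and none was lower, where 0.646% of 7737 genes were called higher and 0.569% lower. Mif had 236, 295 and 321 CPM with αPD-1 alone and 653, 656 and 415 CPM with corin. All samples with corin were higher (log2 fold change 1.00 ± 0.18, SE, edgeR adjusted p = 0.0218). Pgk1 had 262, 328 and 328 CPM against 616, 671 and 387 CPM, also without overlap (0.85 ± 0.18, edgeR adjusted p = 0.0423). In both genes the αPD-1 + corin replicate 3 lay nearest to the αPD-1 samples. At an unadjusted p under 0.05, 16 genes were higher and 3 lower, where 8.62% and 7.64% of all genes were, and the median log2 fold change was 0.41 against 0.01 over all genes. DESeq2 called 5 higher, where it called 0.905% of all genes. The importer Slc2a1 had 218, 198 and 208 CPM against 153, 167 and 129 CPM with corin, lower in every sample, but did not pass (−0.50 ± 0.14, edgeR adjusted p = 0.0931). Bnip3 had 27.9, 34.6 and 50.7 CPM against 99.4, 117 and 43.0 CPM, where replicate 3 with corin lay inside the αPD-1 range (1.06 ± 0.32, edgeR adjusted p = 0.119). Glycolytic enzymes took 40.01, 45.9 and 46.7 per 10000 UMIs with αPD-1 alone and 70.3, 70.7 and 47.5 with corin. Both calls were lost when any 1 sample other than αPD-1 + corin replicate 3 was left out, with counts of 0.

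Dissociation stress genes moved in monocytes as well. Jun, Fos, Hspa1a and Hspa1b were called lower, and the summed level of the 12 genes was 17352 to 20681 CPM with αPD-1 alone and 10382 to 13610 CPM with corin. The melanoma markers summed to 117 to 173 CPM and 114 to 164 CPM, so they overlapped, and the neutrophil markers to 180 to 1012 CPM and 497 to 3660 CPM. The part of stress and neutrophil RNA in the result was not tested. Of the 50 other pathway genes, Hmox1, the heme-degrading enzyme, was called lower in monocytes, with 517, 556 and 349 CPM against 216, 296 and 251 CPM (−0.91 ± 0.18, edgeR adjusted p = 0.0328).

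In the other 4 lineages no gene of the list was called by edgeR or by DESeq2. In macrophages 0 of 36 passed, where 0.0531% of all genes did, and at an unadjusted p under 0.05 2 were higher (Slc16a3 and P4ha2) and none lower, where 9.17% and 8.39% of all genes were. Their median log2 fold change was 0.18, against 0.01. Ldha had 704, 649 and 671 CPM with αPD-1 alone and 1028, 926 and 621 CPM with corin, and Pgk1 had 462, 368 and 440 CPM against 673, 722 and 352 CPM. Replicates 1 and 2 with corin were above the αPD-1 samples for both genes and replicate 3 was below them. The median mitochondrial share of macrophages was 2.68%, 3.06% and 3.00% with αPD-1 alone and 1.96%, 2.47% and 3.29% with corin, so here too replicates 1 and 2 lay outside the αPD-1 range on one side and replicate 3 on the other. Its part in these levels was not tested. Cells without any UMI of 4 melanoma markers also gave 0 of 36.

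Within macrophage states the counts were 0 of 35 in the Mmp12 Mmp13 state (0% of all genes called), 0 of 30 in the Ppbp Ccl24 state (0.173%) and 0 of 36 in the remaining clusters (0.00928%). Before adjustment there was 1 higher and 1 lower in the Mmp12 Mmp13 state (7.34% of all genes), 7 higher in the Ppbp Ccl24 state (9.71%) and 1 higher and 1 lower in the remaining clusters (13.1%). The Lyve1 Folr2 state had 8 cells in 1 sample, under the minimum of 10, and was not tested. In the Mmp12 Mmp13 state Ldha had 1985, 2153 and 1805 CPM against 2129, 2034 and 1695 CPM (−0.02 ± 0.18), and Vegfa had 747, 663 and 562 CPM against 708, 595 and 568 CPM (−0.08 ± 0.19). The groups overlapped in both genes.

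Neutrophils gave 0 of 33 (0.193% of all genes called), with 5 higher and 2 lower at an unadjusted p under 0.05, where 6.65% and 5.25% of all genes were, and a median log2 fold change of 0.08. With a minimum of 300 genes per cell, which keeps neutrophils of low gene number, 13 of 32 were higher before adjustment (9.08% of all genes), none was lower, 1 was called and the median was 0.57. Ndrg1 had 98.5, 60.7 and 58.4 CPM against 191, 259 and 108 CPM (1.37 ± 0.41, edgeR adjusted p = 0.206), and Hilpda had 591, 789 and 662 CPM against 447, 387 and 485 CPM (−0.63 ± 0.22, edgeR adjusted p = 0.270). Neither overlapped between groups, and neither passed. The 9 neutrophil markers themselves summed to 5404 to 9077 CPM with αPD-1 alone and 10941 to 30807 CPM with corin, and Hspa1a was called lower.

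Melanoma-like cells gave 0 of 34, where 0% of 9469 genes were called, with 1 lower and none higher at an unadjusted p under 0.05, where 4.37% and 2.77% of all genes were. That gene was P4ha1, at 246, 227 and 214 CPM against 140, 131 and 166 CPM (−0.65 ± 0.17, edgeR adjusted p = 0.657). The median log2 fold change was 0.04, with 18 of 34 genes positive. Without the upper limit of 4000 genes per cell there was still no call among 36 genes tested, but the median was −0.12, 28 genes were negative, and 8 were lower and 1 higher before adjustment, where 5.83% of all genes were lower. Gapdh had 1896, 1927 and 3491 CPM against 3064, 2431 and 2893 CPM, and the samples with corin lay inside the αPD-1 range. Tested directly, the treatment difference in melanoma-like cells minus that in macrophages was called for 0 of 36 genes (0.0163% of all genes), with 4 lower before adjustment (3.23%), and that in monocytes minus macrophages for 0 of 36 (0.0297%), with 6 higher before adjustment (3.76%).

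Fibroblast-like cells gave 0 of 36, where 2.35% of all genes were called, although the median log2 fold change was 0.54 and 7 genes were higher and 1 lower at an unadjusted p under 0.05, where 11.8% and 11.5% of all genes were. Without the upper limit on genes the median was 0.17, with none higher and 1 lower before adjustment. Ldha had 500, 359 and 432 CPM with αPD-1 alone and 1130, 943 and 382 CPM with corin (0.93 ± 0.37, edgeR adjusted p = 0.162). Again replicate 3 with corin fell within the αPD-1 range and the other samples with corin were well above it. Signs of RNA quality split the samples in the same way, in the opposite direction. The median mitochondrial share was 1.22% and 1.45% in replicates 1 and 2 with corin but 2.25% in replicate 3, against 2.16% to 2.91% with αPD-1 alone, and the 12 genes of dissociation stress summed to 4880 and 5887 CPM in those 2 and 8364 CPM in replicate 3, against 7409 to 10942 CPM. Of the 12, none was called and 6 were lower before adjustment (median −0.64). Their part in the result was not tested. Pfkfb4 was lower in every sample with corin, at 37.0, 81.6 and 61.7 CPM against 17.5, 23.5 and 29.0 CPM (−1.38 ± 0.35, edgeR adjusted p = 0.0564). From the lists of 28 oxidative phosphorylation and 12 ATF4 stress genes, Sdhc, Cox5a and Asns were called higher in these cells, and 21 of the 28 oxidative phosphorylation genes were higher before adjustment, with a median of 0.78. The 50 other pathway genes gave no call in macrophages (42 tested), neutrophils (20), melanoma-like cells (36) or fibroblast-like cells (31). Before adjustment, 5 of them were higher and 1 lower in macrophages, 1 and 1 in neutrophils, 2 and 3 in melanoma-like cells and 7 and 1 in fibroblast-like cells.

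The αPD-1 + corin replicate 3 decided several of these counts. Without it, 8 of 36 genes were called higher in macrophages and none lower, against 0 with it (Gpi1, Pgk1, Pgam1, Eno1, Ldha, Slc16a3, P4ha2 and Plin2), but 12% of all genes were then called higher as well. In monocytes 18 were called higher, against 2 with it, where 3.40% of all genes were, with Bnip3 (1.46 ± 0.24), Mif and Ero1l (1.17 ± 0.19) changed most. In fibroblast-like cells 12 were called higher, against 0 with it, where 6.97% of all genes were, and Pfkfb4 was called lower, as were 6.01% of all genes. CD8 T cells then had 12 higher (2.29% of all genes) and 2 lower (3.95%). Neutrophils had 1 higher, Ndrg1 (1.45% of all genes), and melanoma-like cells 0, where 0.0894% of all genes were called. This sample differed from the other 2 with corin in makeup as well, with 3.43% of its macrophages in the Ppbp Ccl24 state against 34.2% and 27.0%, and 3.35% in the Lyve1 Folr2 state against 21.1% and 13.3%. Without those 2 states, in an alternative chosen after seeing the data, 0 of 36 genes were called in macrophages of all 6 samples, as before.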

How the data were processed

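The authors aligned reads with Cell Ranger 8.0 to a genome that the labels give as GRCm39, and deposited raw UMI counts of 32285 genes per barcode, without normalization, for barcodes called as cells by that program. The libraries came from a 10x Genomics 5′ kit, and the labels also list Seurat 5.0.11. Here, barcodes were kept if they had 600 to 4000 genes and a mitochondrial share of 10% or less, and the highest Scrublet scores (scanpy 1.11.5) were dropped at 0.4% per 1000 barcodes, 2002 barcodes in all. Cells were clustered with SCTransform (Seurat 5.3.0, sctransform 0.4.2) on 20 principal components at resolution 0.8. The members, the other pathway genes and the markers were taken out of the 3000 variable genes first. T and NK cells and macrophages were clustered again.

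UMIs were summed per sample and lineage and tested with edgeR 4.0.16 (quasi-likelihood, TMM, filterByExpr, Benjamini-Hochberg over all genes tested, threshold 0.05, at least 10 cells in every sample). No replicate block was used. DESeq2 1.42.0 was an alternative, and cluster shares were compared by exact permutation. On simulated data with 200 genes changed 4-fold, edgeR found 177 (neutrophils) to 198 (monocytes) of them, each with the right sign, and made 4 to 13 false calls. These folds were larger than those called in CD8 T cells and monocytes, and the simulated spread was the same for all genes. The simulation therefore says nothing on how often changes of the size reported here would be found. The members, gene lists and alternatives were chosen with earlier results of these data known. Genes given with full values were those past the threshold, up to 6 each way per lineage and 20 CPM or more in the group with the higher level, and 8 genes were listed for levels. Members described beyond these were chosen after their values were seen. The study's cell-level MAST test was not used. Scripts ran in R 4.3.3 and Python 3.11.15.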

Additional observations from a re-analysis of the deposited data

Results flagged for a closer look

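Hilpda differed in direction between 2 lineages. In CD8 T cells all 3 αPD-1 + corin samples lay above all αPD-1 samples, with a log2 fold change of 0.89, and in neutrophils all 3 lay below, with a log2 fold change of −0.63, which did not pass the threshold (edgeR adjusted p = 0.270). Higd1a, a mitochondrial protein induced by hypoxia, did the same with a log2 fold change of 0.19 in CD8 T cells and −0.66 in neutrophils, and neither passed the threshold (edgeR adjusted p = 0.388 and 0.272). For both genes the difference between the lineages was not tested. The αPD-1 samples held 20 to 36 neutrophils each. With at least 300 genes per cell, none of the 32 genes tested in neutrophils was lower at an unadjusted edgeR p under 0.05.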

How the results depend on the processing

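The 16 genes called in CD8 T cells and the 2 called in monocytes kept their direction under every alternative that could test them, with 14 of the 16 testable in the naive-like clusters alone. The clusters named CD8 T differed between alternatives, however. Without doublet removal they included a cluster of 893 cells with 6 NK cell markers. Without the upper gene limit they included a cluster of 190 cells led by Naaa and Xcr1. At resolution 1.2 a cluster of 293 cells led by Gzmf and Gzmd was named as regulatory T cells and left out. The count of higher genes in CD8 T cells (13) was 4 when cells above the upper gene limit were kept, 5 to 14 when 1 sample was left out, 2 in the naive-like clusters alone, and 0 without the naive-like clusters or without the Dapl1 cluster. The count of lower genes (3) was 0 in those last 2 cases. In monocytes the count of higher genes (2) was 5 with DESeq2, 11 with no filter on low counts (251 of 16531 genes tested) and 1 at resolution 1.2 (52 of 7945). It was 0 with no upper limit on genes, 0 with at least 300 genes per cell, and 0 to 18 when 1 sample was left out. The count of lower genes in monocytes (0) was 2 with no filter (244 of 16531 genes tested), 1 without doublet removal (54 of 7568) and 1 at resolution 0.4 (59 of 8153). With no filter on low counts there was 1 higher gene in macrophages (496 of 21655 genes tested), 3 in neutrophils (209 of 19907) and 3 in fibroblast-like cells (350 of 19527). There was 1 lower gene in fibroblast-like cells (215 of 19527). In neutrophils the median log2 fold change over all genes was then 1.14, so that fit was shifted as a whole. With at least 300 genes per cell there was 1 higher gene in neutrophils (12 of 3161 genes tested) and 1 lower gene in fibroblast-like cells (97 of 6942). Removing no doublets also gave 1 lower gene in fibroblast-like cells (99 of 7218). When 1 sample was left out, the higher genes numbered 0 to 8 in macrophages, 0 to 1 in neutrophils and 0 to 12 in fibroblast-like cells, where lower genes numbered 0 to 1. The share of macrophages in the Mmp12 Mmp13 state differed by −0.88 percentage points between the groups (αPD-1 + corin minus αPD-1), by 0.51 without αPD-1 replicate 1, and by −2.37 to 0.51 when 1 sample was left out. At resolution 0.4 the state held 114, 68 and 100 of 845, 862 and 728 macrophages with αPD-1 alone. With corin it held 845, 301 and 124 of 4372, 1169 and 1306, a higher share in replicates 1 and 2. Without the upper gene limit, the state held 117, 67 and 108 of 899, 1001 and 802 with αPD-1 alone. With corin it held 854, 257 and 89 of 4485, 1294 and 1376, higher in the same replicates. In the other clusterings no corin sample was above the αPD-1 range. The cause of these shifts was not tested.

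A replicate block paired samples with the same replicate number. Samples with the same number did not deviate together more than others (correlations of −0.17 to 0.08, against −0.15 to 0.22 for different numbers). With 3 samples per group this cannot decide whether samples of the same number were handled together. With the block, CD8 T cells had 9 higher and 2 lower genes, where 179 and 376 of 8867 genes tested were called. Monocytes had 0 in place of 2, where 22 of 7737 genes tested were called higher and 16 lower. Counts of called genes in melanoma-like cells were 0 under all alternatives run, although without the upper limit on genes the median log2 fold change there was −0.12 in place of 0.04. The median in fibroblast-like cells was 0.17 in place of 0.54 under that alternative and 0.40 with the block. RLE size factors changed no count.

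Depth limits the neutrophil sums most, with 89381 UMIs in the least of them, followed by the CD8 T cells of αPD-1 + corin replicate 1, with 232029 UMIs. Adm and P4ha2 could not be tested in monocytes, neutrophils or CD8 T cells.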
